A study of Mus musculus with 15 samples.

Results

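The genes described here are the ligands and receptors of axon guidance, chosen by symbol alone: every semaphorin (Sema), plexin (Plxn), neuropilin (Nrp), Eph receptor, ephrin (Efn), Slit, Robo, netrin (Ntn), netrin-G (Ntng) and Unc5 row of the deposited tables. They numbered 72 of 21878 rows. Of these, 70 were guidance genes and 2 matched by name only: Unc50, which encodes a Golgi protein, and Unc5cl, which resembles the Unc5 receptors in part and is not known as a netrin receptor. All 72 gene numbers matched RefSeq entries with the same symbol.

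RNA-seq had been carried out on prefrontal forebrain cortex of mice after behaviour tests. Libraries came from conditional Presenilin 1/2 double knockout mice (DKO) that drank nicotine (3 libraries) or water (4 libraries), and from wild-type C57BL6/J mice (WT) that drank nicotine (4 libraries) or water (4 libraries). Nicotine was given at 100 µg/ml in the drinking water for 3 months from 8 months of age, and the water groups were treated for the same time. The labels name neither the driver of the conditional deletion nor the sex of the mice. They do not say that each library is a separate mouse, so p-values speak only of the spread between libraries, which may be technical.

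Guidance ligands steer growing axons by attraction or repulsion, and in the adult brain many of them remain in use at synapses, on glia and on blood vessels. Secreted class 3 semaphorins act through neuropilins and A-type plexins, membrane-bound class 4 semaphorins mostly through B-type plexins, ephrins through Eph receptors, Slits through Robo receptors, and netrins through Dcc, neogenin and the Unc5 family. Presenilins are the catalytic subunits of gamma-secretase, a protease that cuts the membrane stubs of several of these receptors and ligands, EphA4 and ephrin-B2 among them, as well as Notch and the amyloid precursor protein.

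Total reads in genes were 16334904 to 19469215 per library, and 1 FPKM (fragments scaled to gene length and library depth) of a guidance gene stood on 26.2 to 492 reads, with a median of 103.25. The targeted gene Psen2 averaged 1.57 ± 0.199 FPKM (SD, n = 3) in DKO nicotine and 1.51 ± 0.179 in DKO water, against 6.48 ± 0.571 in WT nicotine and 6.43 ± 0.77 in WT water (SD, n = 4 each). The 10 markers of excitatory neurons examined had a summed level of 1180 to 1590 FPKM in every library, which cannot show whether neighbouring tissue was included. Striatal markers summed to 227 to 387 FPKM in DKO water, against 156 to 226 in WT water. On nicotine their sums overlapped, at 187 to 274 FPKM in DKO and 162 to 285 in WT. Whether the dissection differed was not tested. The 4 Y-linked genes examined were all above 1 FPKM in 2 of 3 DKO nicotine, 4 of 4 DKO water, 0 of 4 WT nicotine and 4 of 4 WT water libraries, so in WT, nicotine and sex cannot be told apart.

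In level, the guidance genes were led by Sema7a, a membrane-anchored semaphorin that signals through integrins and plexin C1, with 65.0 ± 3.0 FPKM in WT water (SD, n = 4). Ephb6, an Eph receptor without kinase activity, followed at 49.5 ± 0.354 FPKM and Epha4, which binds both classes of ephrins, at 39.4 ± 0.66 FPKM. The WT water libraries of these 3 genes did not overlap. Next came Sema6b at 29.0 ± 0.432 FPKM and Unc5a at 28.2 ± 0.744 FPKM, whose libraries overlapped each other, and then Efna3 at 23.4 ± 1.36 FPKM, Efnb3 at 21.7 ± 1.52 FPKM and Unc50 at 21.3 ± 1.14 FPKM, which also overlapped. In all, 19 members reached a mean of 10 FPKM in WT water, and the median over the tested members was 5.21 FPKM.

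By family, and again as summed FPKM in WT water, semaphorins (20 genes) came to 187 ± 3.4, plexins (9 genes) to 100 ± 1.64, B-type Eph receptors (5 genes) to 72.7 ± 1.17 and A-type Eph receptors (9 genes) to 72.2 ± 1.6. Unc5 receptors came to 44.0 ± 0.545, A-type ephrins to 35.7 ± 1.43 and B-type ephrins to 32.3 ± 1.94 FPKM. The others came to 23.4 ± 1.16 for Slits, 22.3 ± 0.882 for Robos, 16.7 ± 0.346 for netrin-Gs, 11.5 ± 1.39 for netrins and 8.29 ± 0.442 for neuropilins (SD, n = 4 each). B-type Eph receptors had the summed level farthest below WT: 60.7 to 65.7 FPKM in DKO nicotine and 62.3 to 64.6 in DKO water, against 70.1 to 78.5 in WT nicotine and 71.7 to 74.3 in WT water. Not every gene of the family was lower. In DKO water Ephb6 averaged 42.1 FPKM against 49.5 in WT water, Ephb3 5.37 against 8.03 and Ephb2 2.04 against 2.33. Ephb1 (11.7 against 11.1) and Ephb4 (2.19 against 1.7) averaged higher there. The sum of neuropilins lay above WT, at 10 to 13.4 FPKM in DKO nicotine and 11 to 13.0 in DKO water, against 7.57 to 8.97 in WT nicotine and 7.64 to 8.62 in WT water. Nrp1 averaged 7.92 FPKM in DKO water and 4.81 in WT water, and Nrp2 3.81 and 3.48. In both families every DKO library lay apart from every WT library, whereas the sums of semaphorins, at 181 to 191 and 181 to 183 FPKM in DKO nicotine and DKO water, overlapped with 187 to 195 and 183 to 191 in WT nicotine and WT water. Within a group, the median coefficient of variation of a tested member was 8.59% in DKO nicotine, 6.71% in DKO water, 7.7% in WT nicotine and 5.35% in WT water.

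**Figure D1:**
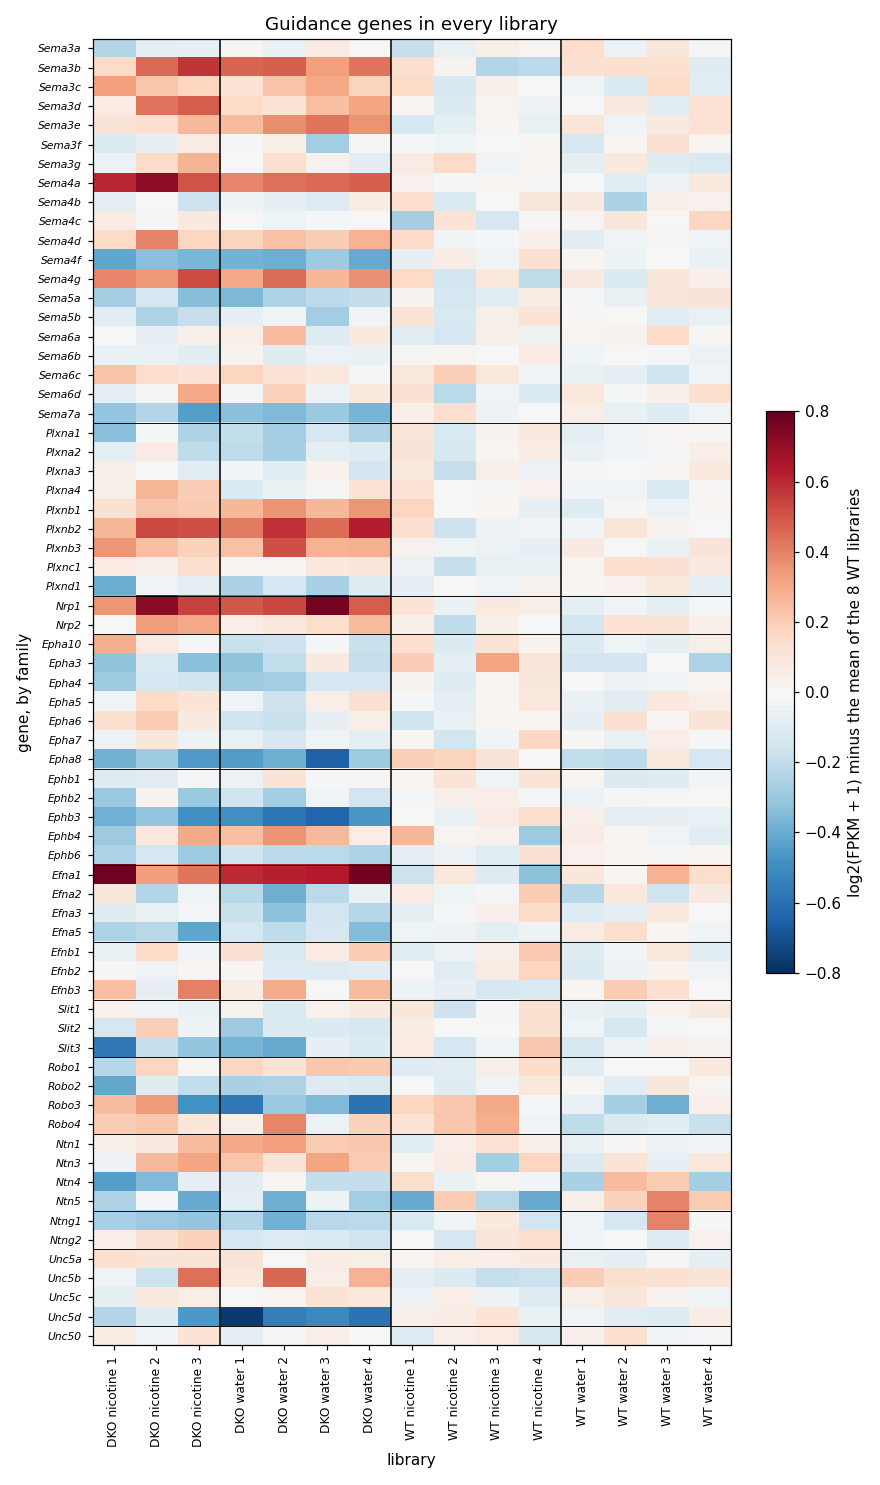
Level of each of the 68 tested guidance genes in each library, as log2(FPKM + 1) minus the mean of the 8 WT libraries. Rows are genes grouped by family, columns are libraries grouped as DKO nicotine, DKO water, WT nicotine and WT water, and red is above and blue below the WT mean. The rows of Sema4a, Nrp1 and Efna1 are red in all 7 DKO libraries, and those of Sema4f, Sema7a and Ephb3 are blue.

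The comparison of DKO with WT libraries asks what loss of the presenilins goes with in this tissue, and it can be made once in mice that drank water and once in mice that drank nicotine. These share no library, but the nicotine groups also differ in Y-linked expression, which 2 of 3 DKO and 0 of 4 WT libraries had. Members went both ways. On water, 15 were higher and 15 lower in DKO, with Sema4a, Nrp1, the B plexins and Efna1 among the rises and Ephb3, Unc5d, Sema4f and Sema7a among the falls. On nicotine, 15 were higher and 14 lower. The changes were small, from -0.57 (Unc5d) to 0.62 (Nrp1) on the log2(FPKM + 1) scale on water and from -0.49 (Epha8) to 0.65 (Efna1) on nicotine.

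Genes were tested with limma on log2(FPKM + 1), a scale that shrinks changes of weakly expressed genes, and a call is a p under 0.05 after Benjamini-Hochberg adjustment over 12728 genes. The filter on low values asked for 1 FPKM or more in 3 or more libraries. It left 68 members, and Efna4, Epha1, Epha2 and Unc5cl did not pass. Sema3b passed through its DKO libraries alone, and without it 14 members were higher on water and 14 on nicotine. On water, 44.1% of the tested members were called, beside 38.0% of all genes. In the higher direction the share was 22.1%, beside 25.5% of all genes, and in the lower direction 22.1%, beside 12.4%. On nicotine, 42.6% of the tested members were called, beside 35.7% of all genes, with 22.1% higher beside 24.6% and 20.6% lower beside 11.0%. The median log2 change of the tested members was -0.03 on water and 0.01 on nicotine, beside 0.05 and 0.06 over all genes. The libraries of the 2 genotypes did not overlap for 31 members on water, beside 36.5% of all genes. Of these 14 were higher and 17 lower, beside 24.0% and 12.5%. On nicotine 29 did not overlap, beside 37.7%, of which 14 were higher and 15 lower, beside 25.8% and 11.8%. Sema3b is counted in the shares called higher and among the higher members without overlap in both comparisons. Rescaling the libraries by median-of-ratios factors gave 12 higher and 18 lower on water, and 9 higher and 20 lower on nicotine. Sema3b is among the higher members in both of these as well.

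Members called in both comparisons numbered 22, which is 73.3% of the calls on water, 75.9% of those on nicotine and 32.4% of the tested members, beside 26.5% of all genes called in 1 direction in both. Higher in both were 11 members, beside 18.1% of all genes: Efna1, Nrp1, Plxnb1, Plxnb2, Plxnb3, Sema3b, Sema3c, Sema3e, Sema4a, Sema4d and Sema4g. Lower in both were 11, beside 8.44%: Efna5, Epha4, Epha8, Ephb3, Ephb6, Plxna1, Robo2, Sema4f, Sema5a, Sema7a and Unc5d. No member was called in opposite directions. Across all 7 DKO and 8 WT libraries, 18 members did not overlap, beside 19.7% of all genes. Of them 8 lay above WT and 10 below, beside 13.1% and 6.59%. Sema3b, which passed the filter through DKO alone, is 1 of the 8. Without Sema3b, 10 were higher in both. Of these, and of the falls, 14 were called in both comparisons under every other processing tried on them except the Y-linked term described next. That made 23 ways, or 22 for Efna1, Plxnb3 and Epha8. The 14 were Efna1, Nrp1, Plxnb2, Plxnb3, Sema3e, Sema4a and Sema4g as rises, and Efna5, Epha4, Epha8, Ephb3, Ephb6, Sema4f and Sema7a as falls.

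With Y-linked expression as a term, added after seeing the data, the 30 calls on water were kept. Every library of both water groups had that expression, so the term could not change the estimates on water, only their spread. It therefore bears on the nicotine calls alone. On nicotine all 29 members called kept their direction and 10 remained called: Efna1, Nrp1, Plxnb2, Sema3b, Sema3d, Sema4a and Sema4d as rises, and Ephb3, Sema4f and Sema7a as falls. Only DKO nicotine replicate 2 matched the WT nicotine libraries in lacking Y-linked expression, so this fit rests on 1 DKO library there. That library lay beyond all 4 WT nicotine libraries in the direction of the call for 27 of the 29, and not for Efnb3 and Plxna1. It also took part in making these calls, so neither its place nor the kept directions is a separate check of them. Of the 14, 7 were called in both comparisons with the term: Efna1, Nrp1, Plxnb2, Sema4a, Ephb3, Sema4f and Sema7a. The term left Unc5d at -0.13 on nicotine (adjusted p = 0.455), Epha4 at -0.15 (adjusted p = 0.196) and Plxnb3 at 0.27 (adjusted p = 0.0926).

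**Figure D2:**
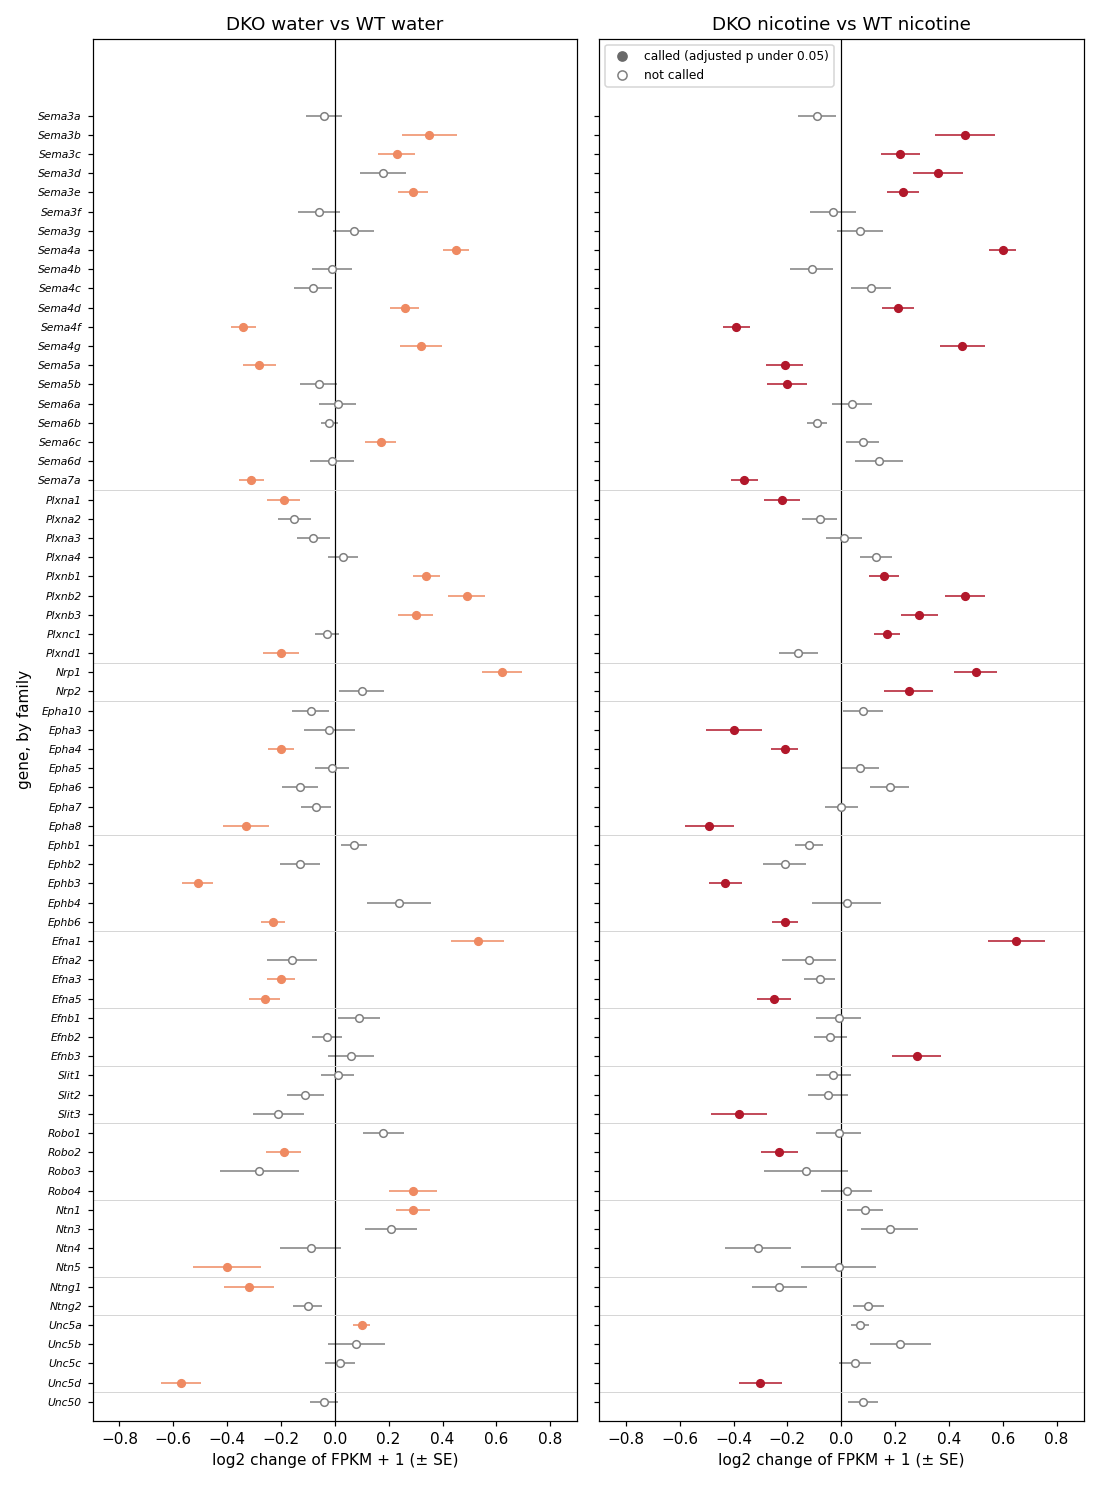
Log2 change of each tested guidance gene between DKO and WT libraries that received water (left) and nicotine (right), with bars of 1 standard error. Filled points passed an adjusted p of 0.05 over all genes, and open points did not. All 3 B plexins lie right of 0 in both panels, and no Eph receptor has a filled point right of 0.

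Start regions of 4 of these genes are shown because their transcripts moved in 1 direction in both comparisons. Sema3e is the first-ranked rise and Sema4f the first-ranked fall among the genes with 1 listed start whose upstream window lies at most 30 bases inside the gene. Sema5a and Epha4 are falls whose windows hold the core motif of RBPJ, the DNA-binding partner of cleaved Notch. Each is the 250 bases upstream of the listed start in RefSeq's GRCm38.p6 annotation, written 5′ to 3′ on the gene's strand. In Epha4, 19 of these bases lie inside the gene span, so its listed start is not the outer end of that span. Sema3e is chr5:14025026-14025275 on the plus strand, Sema4f chr6:82939770-82940019 on the minus strand, Sema5a chr15:32244563-32244812 on the plus strand and Epha4 chr1:77515089-77515338 on the minus strand. Capitals mark TGGGAA, whose first base lies 144 bases upstream of the start in Sema5a and 200 in Epha4.
Sema3e: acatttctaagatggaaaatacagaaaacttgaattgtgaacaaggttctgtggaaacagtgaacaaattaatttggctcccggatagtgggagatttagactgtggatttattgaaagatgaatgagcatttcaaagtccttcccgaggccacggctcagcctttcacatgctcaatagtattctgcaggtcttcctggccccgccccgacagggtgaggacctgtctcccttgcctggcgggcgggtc
Sema4f: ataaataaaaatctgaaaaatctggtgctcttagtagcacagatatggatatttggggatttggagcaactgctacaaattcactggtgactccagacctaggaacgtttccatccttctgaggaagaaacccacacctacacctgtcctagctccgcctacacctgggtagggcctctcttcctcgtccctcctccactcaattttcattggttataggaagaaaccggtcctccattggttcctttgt
Sema5a: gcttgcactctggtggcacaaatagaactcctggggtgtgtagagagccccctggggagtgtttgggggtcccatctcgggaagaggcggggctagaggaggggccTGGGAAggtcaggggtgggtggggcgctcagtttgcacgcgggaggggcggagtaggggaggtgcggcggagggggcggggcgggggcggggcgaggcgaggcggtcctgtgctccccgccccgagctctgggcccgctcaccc
Epha4: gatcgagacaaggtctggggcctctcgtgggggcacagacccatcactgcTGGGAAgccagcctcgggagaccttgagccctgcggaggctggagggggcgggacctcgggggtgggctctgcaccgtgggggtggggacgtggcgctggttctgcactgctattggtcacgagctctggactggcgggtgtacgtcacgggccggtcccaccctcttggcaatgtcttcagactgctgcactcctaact

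The Sema5a and Epha4 windows were rich in G and C (72% and 66%), and those of Sema3e and Sema4f were not (48% and 46%). Start windows were at hand for 63 members, as 79 windows, and 9 members had none in the table. TGGGAA, read on both strands as TGGGAA or TTCCCA, occurred in 16.5% of the member windows and in 21.6% of all 32851 windows of that length. It was in 3 of 21 windows of members higher on water (14.3%) and in 4 of 16 windows of those lower on water (25.0%). Some genes had more than 1 window, and differences between these shares were not tested. The cAMP response element TGACGTCA was in 1.27% of the member windows and 1.55% of all, and the E-box CACGTG in 5.06% and 6.02%. The Egr site GCGTGGGCG, or CGCCCACGC on the other strand, was in 2 of 79 member windows (2.53%) and in 0.536% of all.

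Among the ligands, the secreted class 3 semaphorins had 3 rises on water and 4 on nicotine out of 7, beside 25.5% and 24.6% of all genes. Without Sema3b there were 2 and 3. With rescaling there were also 2 and 3, but these count Sema3b. Beside it, rescaling kept Sema3e on water, and Sema3d and Sema3e on nicotine. None fell, beside 12.4% and 11.0%. Sema3e, a repellent of vessels and axons that binds plexin D1 without a neuropilin, stood at 4.7, 4.82 and 5.35 FPKM in the DKO nicotine libraries and 5.32, 5.85, 6.12 and 5.79 in DKO water, against 3.81, 4.05, 4.37 and 4.08 in WT nicotine and 4.66, 4.21, 4.56 and 4.74 in WT water. Every DKO library was above every WT library of the same treatment, and the log2 change was 0.29 (SE 0.056, adjusted p = 0.000652) on water and 0.23 (SE 0.06, adjusted p = 0.00683) on nicotine. Sema3c, which can attract cortical axons, had 9.89, 9.1 and 8.76 FPKM in the DKO nicotine libraries and 8.39, 9.18, 9.77 and 8.81 in DKO water, against 8.64, 6.95, 7.93 and 7.71 in WT nicotine and 7.47, 7.03, 8.66 and 7.2 in WT water. Its change of 0.23 (adjusted p = 0.0154) on water came with libraries that overlapped, and that on nicotine was 0.22 (adjusted p = 0.0286). Sema3b, the lowest of the class, had 0.801, 1.21 and 1.4 FPKM in the DKO nicotine libraries and 1.23, 1.25, 1.03 and 1.17 in DKO water, against 0.776, 0.65, 0.372 and 0.395 in WT nicotine and 0.759, 0.767, 0.759 and 0.509 in WT water. It was below 1 FPKM in all WT libraries and passed the filter through DKO alone. With no filter its change was 0.35 (adjusted p = 0.0136) on water and 0.46 (adjusted p = 0.00471) on nicotine. Sema3d was called on nicotine, with a change of 0.36 (adjusted p = 0.00704), and had 0.18 on water. Sema3a, Sema3f and Sema3g passed in neither comparison. The Sema3c calls ended with rescaling. On water the Sema3c call also ended without DKO water replicate 3 (adjusted p = 0.05), and on nicotine without WT nicotine replicate 2 or 4 or DKO nicotine replicate 1 (up to 0.124). The Sema3d call ended without DKO nicotine replicate 3 (0.0512).

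Of the 6 membrane-bound class 4 semaphorins, 3 rose and 1 fell in both comparisons, beside 18.1% and 8.44% of all genes. Sema4a (chromosome 3, 88435959 to 88461182), a ligand of B and D plexins that also acts on immune cells, stood at 17.6, 19.1 and 16.3 FPKM in the DKO nicotine libraries and 15, 15.6, 15.7 and 16 in DKO water, against 11.5, 11.1, 11.4 and 11.3 in WT nicotine and 11.2, 10.5, 10.9 and 11.9 in WT water. The DKO libraries all lay above 14 FPKM and the WT libraries all below 12, and the log2 change was 0.45 (SE 0.047, adjusted p = 1.16e-06) on water and 0.60 (SE 0.05, adjusted p = 1.36e-07) on nicotine. Sema4d, the ligand of plexin B1, had 14.1, 16.8 and 14.2 FPKM in the DKO nicotine libraries and 14.3, 14.9, 14.5 and 15.4 in DKO water, against 14, 12.2, 12.4 and 12.9 in WT nicotine and 11.7, 12.2, 12.6 and 12.2 in WT water. Its DKO libraries were the higher ones throughout, with a change of 0.26 (adjusted p = 0.00125) on water and 0.21 (adjusted p = 0.0104) on nicotine. Sema4g, a ligand of plexin B2, had 6.95, 6.72 and 7.68 FPKM in the DKO nicotine libraries and 6.48, 7.25, 6.28 and 6.79 in DKO water, against 5.77, 4.47, 5.43 and 4.27 in WT nicotine and 5.38, 4.61, 5.48 and 5.23 in WT water. Again no DKO library reached down to a WT library, and the changes were 0.32 (adjusted p = 0.00374) on water and 0.45 (adjusted p = 0.000566) on nicotine. Sema4f (chromosome 6, 82911884 to 82939769), found at glutamatergic synapses, went the other way with 8.74, 9.31 and 9.07 FPKM in the DKO nicotine libraries and 8.97, 8.88, 9.66 and 8.82 in DKO water, against 11.4, 12.5, 11.7 and 13.1 in WT nicotine and 12.1, 11.6, 12 and 11.5 in WT water. All 7 DKO libraries lay below all 8 WT libraries, and Sema4f fell, with a change of -0.34 (SE 0.046, adjusted p = 1.79e-05) on water and -0.39 (SE 0.05, adjusted p = 1.44e-05) on nicotine. Sema4b and Sema4c passed in neither. The Sema4d call on nicotine ended with rescaling and without DKO nicotine replicate 2 (0.0693).

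Sema7a (chromosome 9, 57939596 to 57962865), the guidance gene with the highest level, fell in both comparisons. It stood at 53.4, 56.3 and 48.8 FPKM in the DKO nicotine libraries and 52.6, 51.8, 54.0 and 51.1 in DKO water, against 68.4, 73.0, 64.6 and 66.3 in WT nicotine and 69.0, 63.8, 61.9 and 65.3 in WT water. The highest DKO library, at 56.3 FPKM, was below the lowest WT library, at 61.9 FPKM, and the change was -0.31 (SE 0.047, adjusted p = 8.23e-05) on water and -0.36 (SE 0.051, adjusted p = 4.22e-05) on nicotine. Sema5a, which carries thrombospondin repeats, had 4.07, 4.53 and 3.82 FPKM in the DKO nicotine libraries and 3.76, 4.14, 4.28 and 4.35 in DKO water, against 5.22, 4.54, 4.74 and 5.34 in WT nicotine and 5.06, 4.88, 5.51 and 5.54 in WT water. These libraries did not overlap either, and the changes were -0.28 (adjusted p = 0.00193) on water and -0.21 (adjusted p = 0.0217) on nicotine. Sema5b was called on nicotine, with a change of -0.20 (adjusted p = 0.042), and had -0.06 on water. Of class 6, Sema6c was called on water, with a change of 0.17 (adjusted p = 0.0245), and Sema6a, Sema6b and Sema6d in neither. On nicotine the Sema5a call ended with the replicate block (0.0558), with only the groups compared (0.0532) and without WT nicotine replicate 1 or 4 or DKO nicotine replicate 1 or 3 (up to 0.11). The Sema5b call ended with no filter (0.0619), with the replicate block (0.0656), with only the groups compared (0.0702) and without WT nicotine replicate 1, 3 or 4 or DKO nicotine replicate 2 or 3 (up to 0.136). The Sema6c call ended with rescaling and without WT water replicate 3 or DKO water replicate 1 or 2 (up to 0.0775).

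Of the semaphorin receptors, all 3 B plexins rose in both comparisons, beside 18.1% of all genes. Of the 4 A plexins 1 fell in both, beside 8.44% of all genes. None rose on water or nicotine, beside 25.5% and 24.6%. Plxnb2 (chromosome 15, 89155546 to 89182018), a receptor of class 4 semaphorins, stood at 11.7, 14.2 and 14.1 FPKM in the DKO nicotine libraries and 13.1, 14.8, 13.4 and 15.3 in DKO water, against 10.5, 8.43, 9.28 and 9.39 in WT nicotine and 9.42, 10.3, 9.76 and 9.53 in WT water. The groups did not overlap, and Plxnb2 rose by 0.49 (SE 0.068, adjusted p = 2.72e-05) on water and 0.46 (SE 0.074, adjusted p = 0.000134) on nicotine. Plxnb1, the receptor of Sema4d, had 10.8, 11.7 and 11.5 FPKM in the DKO nicotine libraries and 12, 12.9, 12 and 12.8 in DKO water, against 11.2, 9.78, 9.96 and 9.35 in WT nicotine and 9.11, 9.92, 9.48 and 9.93 in WT water. On water the groups were apart (log2 change 0.34, adjusted p = 6.22e-05), and on nicotine they overlapped and the change was 0.16 (adjusted p = 0.0332). Plxnb3, an X-linked gene whose protein binds Sema5a, had 5.06, 4.62 and 4.4 FPKM in the DKO nicotine libraries and 4.58, 5.78, 4.75 and 4.78 in DKO water, against 3.86, 3.63, 3.59 and 3.54 in WT nicotine and 3.99, 3.74, 3.57 and 4.09 in WT water. It rose by 0.30 (adjusted p = 0.00156) on water and 0.29 (adjusted p = 0.00369) on nicotine, without overlap. Plxna1, which signals together with neuropilins, averaged 15.5 ± 1.91 FPKM in DKO on nicotine (SD, n = 3) and 15.2 ± 0.717 in DKO water, against 18.1 ± 1.26 in WT nicotine and 17.5 ± 0.533 in WT water (SD, n = 4 each). Its change was -0.19 (adjusted p = 0.0228) on water and -0.22 (adjusted p = 0.0176) on nicotine. In GENCODE vM21, 10.7% of its exon bases lie opposite another gene, and the sources used here do not say whether counting used strand.

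Plxna2, Plxna3 and Plxna4 were called in neither comparison. Plxnd1, the receptor of Sema3e, fell, with a change of -0.20 (adjusted p = 0.0245) on water and had -0.16 (adjusted p = 0.101) on nicotine. Plxnc1, the receptor of Sema7a, had -0.03 on water and was higher in DKO by 0.17 (adjusted p = 0.0143) on nicotine. There it averaged 9.49 ± 0.296 FPKM in DKO (SD, n = 3) and 8.35 ± 0.431 FPKM in WT (SD, n = 4). On water it averaged 9.3 ± 0.325 FPKM in DKO and 9.53 ± 0.377 FPKM in WT (SD, n = 4 each), so WT nicotine was the group that stood apart. The Plxnb1 call on nicotine ended with rescaling, with the replicate block (0.0657), with only the groups compared (0.084) and without WT nicotine replicate 2, 3 or 4 or DKO nicotine replicate 2 or 3 (up to 0.106). The Plxnc1 call ended with rescaling and without DKO nicotine replicate 3 (0.0684). The Plxna1 call on water ended without WT water replicate 3 or 4 or DKO water replicate 2 or 4 (up to 0.0709), and on nicotine with only the groups compared (0.0632) and without DKO nicotine replicate 1 or 3 (up to 0.112). The Plxnd1 call ended without WT water replicate 2 or 3 or DKO water replicate 1 or 3 (up to 0.0721).

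Nrp1 (chromosome 8, 128358591 to 128505476), the co-receptor of class 3 semaphorins and of vascular endothelial growth factor, had the largest rise of any guidance gene on water on the log2(FPKM + 1) scale. By the fold of mean FPKM, Sema3b was higher, at 1.67 against 1.65 for Nrp1 on water and 2.07 against 1.87 for Efna1 on nicotine. Nrp1 stood at 6.64, 8.89 and 7.75 FPKM in the DKO nicotine libraries and 7.47, 7.68, 9.17 and 7.37 in DKO water, against 5.46, 4.77, 5.32 and 5.19 in WT nicotine and 4.69, 4.89, 4.7 and 4.96 in WT water. The lowest DKO library, at 6.64 FPKM, was above the highest WT library, at 5.46 FPKM, and Nrp1 rose by 0.62 (SE 0.074, adjusted p = 6.47e-06) on water and 0.50 (SE 0.08, adjusted p = 0.000159) on nicotine. Nrp2, its relative, was at 3.39, 4.53 and 4.41 FPKM in the DKO nicotine libraries and 3.55, 3.64, 3.83 and 4.21 in DKO water, against 3.51, 2.8, 3.5 and 3.38 in WT nicotine and 2.95, 3.73, 3.74 and 3.51 in WT water. On nicotine the groups overlapped and the change was 0.25 (adjusted p = 0.0445), and on water it was 0.10 (adjusted p = 0.36). The Nrp2 call ended with rescaling, with no filter (0.0709), with only the groups compared (0.0846) and in 7 of the 15 fits that left out a library: WT nicotine replicate 2 or 4, WT water replicate 4, DKO nicotine replicate 2 or 3 or DKO water replicate 2 or 3 (up to 0.169).

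**Figure D3:**
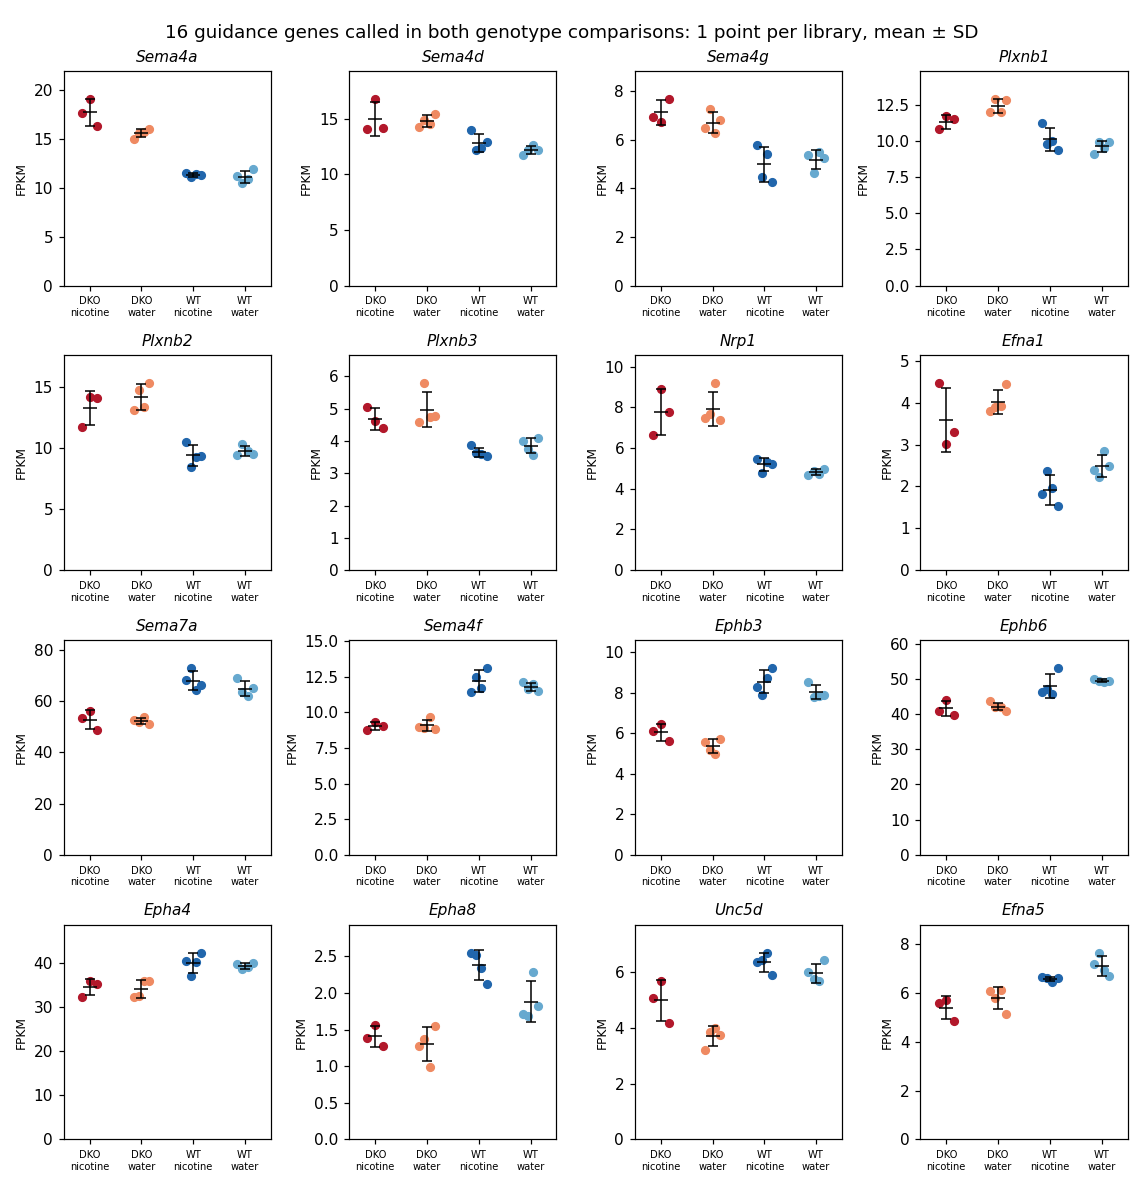
FPKM of 16 of the 22 guidance genes called in both genotype comparisons, with 1 point per library and black bars for the mean and SD of each group (n = 3 for DKO nicotine, n = 4 for the others). The first 8 panels show rises, such as Sema4a, with DKO libraries at 15 to 19.1 FPKM against WT libraries at 10.5 to 11.9. The other 8 panels show falls, such as Ephb3, with DKO libraries at 4.97 to 6.45 FPKM against WT libraries at 7.81 to 9.22.

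Eph receptors were called in 1 direction. Of 12 tested, 4 fell on water (Epha4, Epha8, Ephb3 and Ephb6) and 5 on nicotine (the same 4 and Epha3), beside 12.4% and 11.0% of all genes. None rose, beside 25.5% and 24.6%. The median log2 change of the 12 was -0.11 on water and -0.16 on nicotine, beside 0.05 and 0.06 over all genes, and with rescaling 4 and 7 were lower. With the Y-linked term, Ephb3 was the 1 Eph receptor called on nicotine. Ephb3 (chromosome 16, 21204620 to 21223309), which binds B-type ephrins, stood at 6.11, 6.45 and 5.61 FPKM in the DKO nicotine libraries and 5.59, 5.18, 4.97 and 5.72 in DKO water, against 8.3, 7.91, 8.71 and 9.22 in WT nicotine and 8.55, 7.81, 7.85 and 7.91 in WT water. The groups did not overlap, and Ephb3 fell, with a change of -0.51 (SE 0.057, adjusted p = 2.77e-06) on water and -0.43 (SE 0.061, adjusted p = 3.94e-05) on nicotine. Epha4 (chromosome 1, 77367182 to 77515107), a substrate of gamma-secretase that acts in dendritic spines, had 32.4, 35.9 and 35.4 FPKM in the DKO nicotine libraries and 32.4, 32.5, 36.0 and 36.0 in DKO water, against 40.5, 37.0, 40.2 and 42.4 in WT nicotine and 39.8, 38.6, 39.1 and 40.1 in WT water. DKO libraries reached 36.0 FPKM at most and WT libraries 37.0 at least, and the change was -0.20 (adjusted p = 0.00345) on water and -0.21 (adjusted p = 0.00498) on nicotine. Ephb6 had 40.9, 44.1 and 39.7 FPKM in the DKO nicotine libraries and 43.6, 42.0, 41.9 and 41.0 in DKO water, against 46.3, 47.2, 45.8 and 53.1 in WT nicotine and 49.9, 49.5, 49.1 and 49.4 in WT water. It too lay lower in every DKO library, with changes of -0.23 (adjusted p = 0.000678) on water and -0.21 (adjusted p = 0.00301) on nicotine.

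Epha8, a receptor of A-type ephrins at low level, had 1.39, 1.56 and 1.27 FPKM in the DKO nicotine libraries and 1.28, 1.37, 0.992 and 1.55 in DKO water, against 2.55, 2.52, 2.34 and 2.12 in WT nicotine and 1.71, 1.69, 2.29 and 1.82 in WT water. The DKO libraries were all below the WT libraries, with a change of -0.33 (adjusted p = 0.00594) on water and -0.49 (adjusted p = 0.000532) on nicotine. Epha3, another receptor of A-type ephrins, had 1.1, 1.42 and 1.08 FPKM in the DKO nicotine libraries and 1.1, 1.29, 1.76 and 1.31 in DKO water, against 2.01, 1.5, 2.27 and 1.81 in WT nicotine and 1.37, 1.37, 1.63 and 1.21 in WT water. On nicotine the groups were apart and Epha3 fell, with a change of -0.40 (adjusted p = 0.00703), whereas on water they overlapped and the change was -0.02 (adjusted p = 0.868). Epha5, Epha6, Epha7, Epha10, Ephb1, Ephb2 and Ephb4 were called in neither comparison. Of the untested receptors, Epha1 averaged 0.0934 FPKM and Epha2 0.332 FPKM in DKO water, against 0.0629 and 0.34 FPKM in WT water.

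Ephrins, the membrane-bound ligands of these receptors, went both ways. Efna1 (chromosome 3, 89271730 to 89280951), an A-type ephrin of vessels and astrocytes, stood at 4.46, 3.02 and 3.29 FPKM in the DKO nicotine libraries and 3.81, 3.89, 3.93 and 4.44 in DKO water, against 1.82, 2.38, 1.96 and 1.53 in WT nicotine and 2.39, 2.22, 2.85 and 2.5 in WT water. No DKO library overlapped with a WT library, and Efna1 rose by 0.53 (SE 0.098, adjusted p = 0.000463) on water and 0.65 (SE 0.106, adjusted p = 0.000168) on nicotine, the largest rise of a guidance gene there on the log2(FPKM + 1) scale. Efna5, an A-type ephrin of neurons, had 5.6, 5.71 and 4.86 FPKM in the DKO nicotine libraries and 6.09, 5.79, 6.12 and 5.15 in DKO water, against 6.64, 6.6, 6.44 and 6.6 in WT nicotine and 7.18, 7.64, 6.92 and 6.69 in WT water. All DKO libraries were below all WT libraries, and the change was -0.26 (adjusted p = 0.0022) on water and -0.25 (adjusted p = 0.00572) on nicotine. Efna3 fell on water to 20.3 ± 1.08 FPKM in DKO, against 23.4 ± 1.36 FPKM in WT (SD, n = 4 each), with a change of -0.20 (adjusted p = 0.00766), and had -0.08 (adjusted p = 0.287) on nicotine. In GENCODE vM21, 14.1% of its exon bases lie opposite another gene. Efnb3, a B-type ephrin of the midline, had 24.1, 19.3 and 27.1 FPKM in the DKO nicotine libraries and 21.2, 25.2, 20.2 and 24.4 in DKO water, against 19.7, 19.3, 18.5 and 18.6 in WT nicotine and 20.5, 23.5, 22.4 and 20.3 in WT water. Its libraries overlapped on nicotine, where the change was 0.28 (adjusted p = 0.0255), and on water it was 0.06. Without WT nicotine replicate 3 or 4, without DKO nicotine replicate 1 or 3 (up to 0.172), with the replicate block (0.0548) or with rescaling, the Efnb3 call ended. Efna2, Efnb1 and Efnb2 were called in neither. Efna4, which did not pass the filter, averaged 0.315 ± 0.147 FPKM in DKO on nicotine (SD, n = 3) and 0.338 ± 0.141 in DKO water, against 0.137 ± 0.103 in WT nicotine and 0.126 ± 0.0293 in WT water (SD, n = 4 each). With no filter it was called higher on water.

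Of 3 Slits and 4 Robos, 1 rose and 1 fell on water, beside 25.5% and 12.4% of all genes. On nicotine 2 fell, beside 11.0%. Slit3, a secreted repellent, had 4.99, 6.83 and 6.19 FPKM in the DKO nicotine libraries and 5.88, 5.72, 7.52 and 7.27 in DKO water, against 8.31, 7.12, 7.68 and 9.35 in WT nicotine and 7.14, 7.61, 8.15 and 8.07 in WT water. It fell, with a change of -0.38 (adjusted p = 0.00795) on nicotine, where the groups were apart, and had -0.21 on water, where they overlapped. Robo2, a Slit receptor of cortical axons, averaged 10.9 ± 1.3 FPKM in DKO on nicotine (SD, n = 3) and 11.3 ± 0.717 in DKO water, against 12.9 ± 0.698 in WT nicotine and 13.1 ± 0.671 in WT water (SD, n = 4 each). Robo2 libraries of the genotypes did not overlap, and the change was -0.19 (adjusted p = 0.0241) on water and -0.23 (adjusted p = 0.0172) on nicotine. Robo4, the Robo of endothelium, was called on water, with a change of 0.29 (adjusted p = 0.0161), and not on nicotine (0.02). Slit1, Slit2, Robo1 and Robo3 were called in neither. The Slit3 call ended without DKO nicotine replicate 1 (0.0577), and the Robo4 call without DKO water replicate 2 (0.0647). The Robo2 call ended on water without WT water replicate 3 or 4 or DKO water replicate 1 or 2 (up to 0.0737), and on nicotine without WT nicotine replicate 4 or DKO nicotine replicate 1 (up to 0.123).

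Among netrins and their receptors the clearest change was in Unc5d (chromosome 8, 28646717 to 29219671), a repulsive receptor of netrins and of FLRT2. It stood at 5.06, 5.68 and 4.18 FPKM in the DKO nicotine libraries and 3.2, 3.86, 3.98 and 3.74 in DKO water, against 6.33, 6.42, 6.68 and 5.88 in WT nicotine and 6.0, 5.74, 5.65 and 6.42 in WT water. On water the DKO libraries were all at or below 3.98 FPKM and the WT libraries at or above 5.65, a change of -0.57 (SE 0.074, adjusted p = 1.32e-05), the largest fall of a guidance gene in that comparison on this scale. On nicotine the groups were also apart, with a change of -0.30 (SE 0.08, adjusted p = 0.00734), and without DKO nicotine replicate 3 the call ended (0.0599). Unc5a rose by 0.10 (adjusted p = 0.0209) on water and had 0.07 (adjusted p = 0.13) on nicotine, and Unc5b and Unc5c were called in neither. Ntn1, a secreted axon attractant, had 2.47, 2.53 and 2.98 FPKM in the DKO nicotine libraries and 3.14, 3.21, 2.86 and 2.89 in DKO water, against 2.15, 2.48, 2.63 and 2.47 in WT nicotine and 2.22, 2.38, 2.25 and 2.3 in WT water. On water every DKO library was above every WT library (log2 change 0.29, adjusted p = 0.00133), and on nicotine the groups overlapped (log2 change 0.09, adjusted p = 0.308). Ntng1, a membrane-anchored netrin of synapses, fell, with a change of -0.32 (adjusted p = 0.0134) on water, and on nicotine its change was -0.23 (adjusted p = 0.0829).

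Ntn5 was called lower on water (log2 change -0.40, adjusted p = 0.0196), with 23.4% of its exon bases opposite the gene Sec1, and Ntn3, Ntn4 and Ntng2 were called in neither comparison. The Unc5a call ended with rescaling and without WT water replicate 1, 2 or 4 or DKO water replicate 1 (up to 0.0643). The Ntn5 call ended without WT water replicate 3 or DKO water replicate 2 or 4 (up to 0.0682). Unc50 stood between 19.0 and 22.9 FPKM in all 15 libraries and was called in no comparison. Unc5cl averaged 0.0352 ± 0.0203 FPKM in DKO water and 0.0207 ± 0.0146 FPKM in WT water (SD, n = 4 each).

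Other genes of these pathways were read from a list of 68 co-receptors, adhesion partners and signalling proteins, of which 67 were tested. On water 13 rose and 19 fell, and on nicotine 10 rose and 18 fell, while with the Y-linked term 2 rose and 9 fell there. The shares of all genes were 25.5% higher and 12.4% lower on water, and 24.6% and 11.0% on nicotine. On water the netrin-G receptors led the falls by p. Lrrc4 (NGL-2), the partner of Ntng2, was at 26.5 ± 0.499 FPKM in DKO water and 38.3 ± 0.946 FPKM in WT water (SD, n = 4 each), a change of -0.52 (SE 0.037, adjusted p = 1.64e-08). Lrrc4c (NGL-1), the partner of Ntng1, was at 10.3 ± 0.317 FPKM in DKO water and 14.9 ± 0.285 FPKM in WT water (SD, n = 4 each), a change of -0.49 (SE 0.038, adjusted p = 3.12e-08). Both also fell on nicotine, with changes of -0.43 (SE 0.04, adjusted p = 4.86e-07) for Lrrc4 and -0.43 (SE 0.041, adjusted p = 5.76e-07) for Lrrc4c. Ngef (ephexin), which links Epha4 to RhoA, fell to 85.1 ± 7.72 FPKM in DKO nicotine (SD, n = 3), against 126.0 ± 6.01 in WT nicotine (SD, n = 4), with a change of -0.57 (SE 0.053, adjusted p = 4.64e-07). Rnd1, a plexin-binding GTPase, fell there, with a change of -0.62 (SE 0.063, adjusted p = 1.05e-06). Rtn4 (Nogo) and its receptor Rtn4r, inhibitors of axon growth, fell on water, with changes of -0.29 (SE 0.028, adjusted p = 5.61e-07) for Rtn4 and -0.47 (SE 0.05, adjusted p = 1.45e-06) for Rtn4r. Rises included Rhoa, the GTPase of growth cone collapse, by 0.31 (SE 0.038, adjusted p = 6.58e-06) on water and 0.21 (SE 0.041, adjusted p = 0.000892) on nicotine. Vav2, an exchange factor of Eph receptors, rose by 0.37 (SE 0.067, adjusted p = 0.000409) on water and Mag, a myelin inhibitor of axon growth, by 0.35 (SE 0.066, adjusted p = 0.000496), and Mical1, an oxidoreductase downstream of plexin A, rose by 0.52 (SE 0.094, adjusted p = 0.000387) on nicotine, a call that ended with the Y-linked term (0.0661). Rtn4rl1, a relative of the Nogo receptor, rose by 0.22 (SE 0.044, adjusted p = 0.000972) on water.

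Of 8 guidance receptors and ligands known as gamma-secretase substrates (Epha4, Ephb2, Efnb1, Efnb2, Robo1, Unc5d, Dcc and Neo1), Epha4 and Unc5d fell in both comparisons and the other 6 were not called. The share of all genes that fell in both was 8.44%. With the Y-linked term, 0 of the 8 were called on nicotine. Ephb2 had 1.74, 2.44 and 1.74 FPKM in the DKO nicotine libraries and 2.02, 1.78, 2.32 and 2.04 in DKO water, against 2.35, 2.46, 2.49 and 2.34 in WT nicotine and 2.26, 2.35, 2.33 and 2.38 in WT water, which overlapped on nicotine (log2 change -0.21, adjusted p = 0.0541) and on water (log2 change -0.13, adjusted p = 0.165). Of 7 members known for roles in vessels (Robo4, Plxnd1, Unc5b, Efnb2, Ephb4, Efna1 and Sema3g), Efna1 and Robo4 rose and Plxnd1 fell on water, and Efna1 alone rose on nicotine. The shares of all genes were 25.5% higher and 12.4% lower on water, and 24.6% higher on nicotine. Ephb4, the receptor of Efnb2 on veins, averaged 2.19 ± 0.277 FPKM in DKO water and 1.7 ± 0.114 FPKM in WT water (SD, n = 4 each), a change of 0.24 (adjusted p = 0.133).

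Markers of several cell types moved with the genotype. Of all genes, 25.5% were called higher and 12.4% lower on water, and 24.6% and 11.0% on nicotine, and the counts below stand beside these shares. All 10 microglial markers rose on water and 8 on nicotine, with summed levels of 529 to 609 FPKM in DKO nicotine and 553 to 631 in DKO water, against 169 to 184 in WT nicotine and 170 to 192 in WT water. All 10 astrocyte markers rose on water and 8 on nicotine, at 1340 to 1410 and 1330 to 1440 FPKM in DKO nicotine and DKO water, against 829 to 937 and 774 to 866 in WT nicotine and WT water. Of 10 excitatory neuron markers, 6 fell on water, and on nicotine 6 fell and 1 rose, with sums of 1230 to 1320 and 1180 to 1320 FPKM in DKO nicotine and DKO water, against 1500 to 1590 and 1490 to 1530 in WT nicotine and WT water. Oligodendrocyte markers had 6 rises of 10 on water and 5 on nicotine, with sums of 913 to 1050 and 997 to 1250 FPKM in DKO nicotine and DKO water, against 889 to 952 and 894 to 1000 in WT nicotine and WT water. Inhibitory neuron markers had 8 rises of 8 on water and 4 on nicotine (531 to 697 and 601 to 744, against 513 to 548 and 498 to 547 FPKM). Endothelial and pericyte markers had 5 of 10 and 3 (115 to 140 and 118 to 145, against 94.9 to 114 and 95.9 to 101 FPKM), and meningeal markers 4 of 6 and 3 (15.2 to 29.4 and 25.8 to 32.6, against 15.2 to 19.8 and 16.7 to 22.1 FPKM). Striatal markers had 5 of 8 and 0 (187 to 274 and 227 to 387, against 162 to 285 and 156 to 226 FPKM). Oligodendrocyte precursor markers had 1 rise of 5 on water and 0 on nicotine. Of 4 choroid plexus markers 1 was tested and it was not called, and no marker of these lists was at 0 in every library of a group. Their part in the rises and falls of guidance genes was not tested, and in bulk tissue fewer cells of a type and less RNA per cell cannot be told apart.

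The comparison of nicotine with water was made within each genotype. No guidance gene was called in WT (0 of 68) or in DKO (0 of 68), beside 0.173% and 0.157% of all genes. In WT, 12 members had an unadjusted p under 0.05 in limma, beside 8.7% of all genes, and voom on recovered reads called 0. In DKO, 13 had one, beside 13.9%, and voom called 1. Changes ranged from -0.41 (Ntn5) to 0.34 (Robo3) in WT and from -0.19 (Robo1) to 0.49 (Robo3) in DKO. Libraries did not overlap for 8 members in WT, beside 5.8% of all genes, and for 9 in DKO, beside 10.9%.

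In WT the smallest p was that of Plxnc1, which had 8.61, 7.71, 8.51 and 8.58 FPKM in WT nicotine, against 9.05, 9.89, 9.77 and 9.42 FPKM in WT water. The groups were apart, with a change of -0.17 (SE 0.045, adjusted p = 0.223). Robo4 had 1.92, 2.14, 2.32 and 1.65 FPKM in WT nicotine, against 1.35, 1.5, 1.56 and 1.39 FPKM in WT water, also without overlap (log2 change 0.29, SE 0.089, adjusted p = 0.333). Ntn5 had 1.89, 3.4, 2.28 and 1.9 FPKM in WT nicotine, against 2.95, 3.36, 4.05 and 3.4 FPKM in WT water, with 1 nicotine library among the water libraries (log2 change -0.41, SE 0.127, adjusted p = 0.338). All 4 WT nicotine libraries lacked Y-linked expression and all 4 WT water libraries had it, so nicotine and sex cannot be told apart in these values.

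In DKO, where 2 of 3 nicotine and 4 of 4 water libraries had Y-linked expression, the smallest p was that of Unc5d, the netrin receptor that was lower in DKO than in WT. It had 5.06, 5.68 and 4.18 FPKM in DKO nicotine, against 3.2, 3.86, 3.98 and 3.74 FPKM in DKO water. Every nicotine library was above every water library, a change of 0.34 (SE 0.08, adjusted p = 0.0914) that did not pass. It passed with voom (0.42, adjusted p = 0.0396) and without DKO nicotine replicate 3 (0.44, adjusted p = 0.0219). Ntng2, a netrin-G of synapses, had 14.5, 15.3 and 16 FPKM in DKO nicotine, against 12.6, 12.9, 12.8 and 12.4 FPKM in DKO water, again apart (log2 change 0.25, SE 0.058, adjusted p = 0.0914), and 14.0% of its exon bases are shared with another gene on the same strand. Sema4a had 0.17 (SE 0.05, adjusted p = 0.166), with the DKO nicotine libraries the highest of the study. Robo3, singled out after its values were seen, was at 4.4, 4.76 and 2.26 FPKM in DKO nicotine, against 2.06, 2.71, 2.57 and 2.03 FPKM in DKO water (log2 change 0.49, adjusted p = 0.203), with replicate 3 of DKO nicotine among the water libraries and a call without it (0.74, adjusted p = 0.0132).

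**Figure D4:**
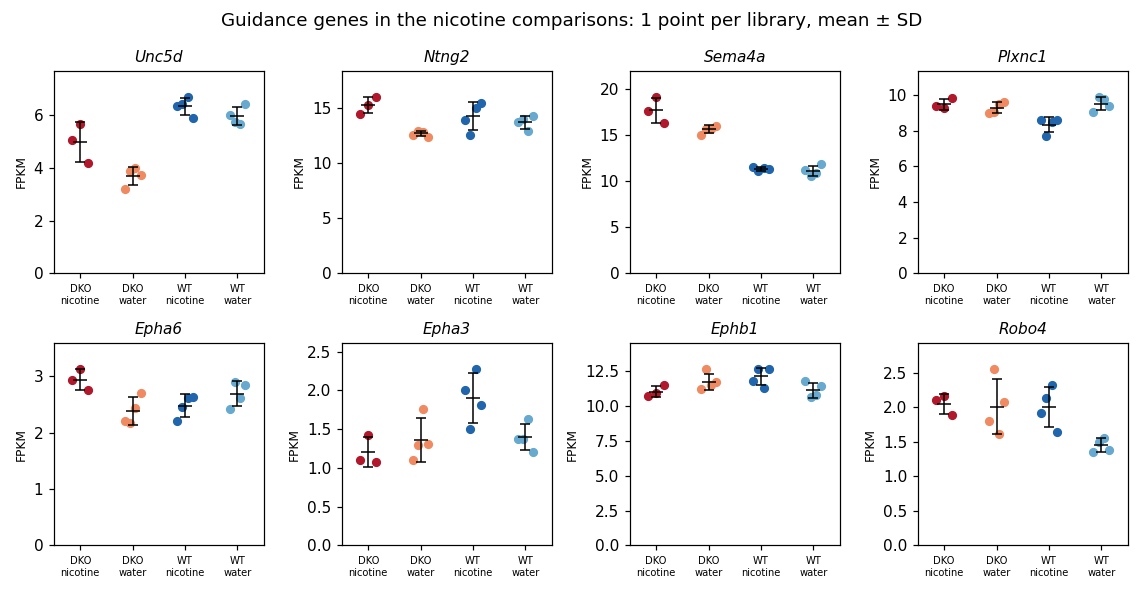
FPKM of 8 guidance genes with the smallest p or an unadjusted p under 0.05 in the nicotine comparisons or in the difference between them, with 1 point per library and black bars for the mean and SD of each group (n = 3 for DKO nicotine, n = 4 for the others). DKO nicotine libraries lie above DKO water libraries for Unc5d, Ntng2, Sema4a and Epha6, and WT nicotine libraries lie below WT water libraries for Plxnc1.

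Whether nicotine acted differently in the 2 genotypes was tested as an interaction, the nicotine change in DKO minus that in WT. Y-linked expression was in 4 of 4 water and 0 of 4 nicotine libraries of WT, and in 4 of 4 and 2 of 3 of DKO. The interaction therefore also holds a difference in Y-linked expression, and nicotine and sex are not separated in this fit. No member passed (0 of 68), beside 0.0157% of all genes. In limma 9 members had an unadjusted p under 0.05, beside 6.9% of all genes, and voom called 0. Epha6, a receptor of A-type ephrins, had the smallest p, with 2.94, 3.12 and 2.76 FPKM in DKO nicotine, against 2.21, 2.17, 2.43 and 2.7 in DKO water, and 2.21, 2.46, 2.62 and 2.64 FPKM in WT nicotine, against 2.42, 2.9, 2.62 and 2.84 in WT water. Its change with nicotine was 0.22 in DKO and -0.09 in WT, neither of them called, with a difference of 0.31 (SE 0.099, adjusted p = 0.653). Plxnc1 had a difference of 0.20 (SE 0.067, adjusted p = 0.657) and Ephb1 of -0.19 (SE 0.071, adjusted p = 0.657). For 3 genes called in 1 genotype comparison, the unadjusted p of the interaction was under 0.05: Epha3 with -0.37 (adjusted p = 0.657), Ntn1 with -0.20 (adjusted p = 0.7) and Plxnc1 as given. The 15 members called in 1 genotype comparison alone are therefore not shown to respond to the genotype differently under water and nicotine.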

How the data were processed

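Per the labels' protocols, total RNA (TRIzol) went into TruSeq Stranded mRNA LT libraries. The submitters' processing notes name the build GRCm38.p6. Aligner, counter and strand setting: not given in the sources used here. The authors deposited 1 table of FPKM values per library. Values were whole multiples of 1 read in 100% of expressed rows (tolerance 0.02 reads), which gave the depth of 16334904 to 19469215 reads in genes. Of 21878 rows, 3760 were at 0 in every library.

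For the 12728 genes that reached 1 FPKM in 3 or more of 15 libraries, log2(FPKM + 1) was fitted by limma 3.58.1 (R 4.3.3) with an intensity trend, 1 term per group and Benjamini-Hochberg adjustment per comparison. A count model had been planned in case of counts, and limma was used because the values are FPKM. Functions were tested on simulated data. The labels do not say that replicate numbers pair the libraries, and the main fit held no term for them. Alternatives were rescaling, no filter, a filter at 5 FPKM, a pseudocount of 0.1, no trend, only the groups compared, a replicate block, voom on recovered reads, leaving out each library and, added after seeing the data, a term for Y-linked expression.

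Members and lists were chosen with earlier results of these data known. Named were up to 12 rises and 12 falls with the smallest p per genotype comparison, 3 members per nicotine comparison and interaction, the highest member per family, substrates, vascular and untested members, members called in 1 genotype comparison with an unadjusted interaction p under 0.05, and 4 rises and 4 falls of the partner list per genotype comparison. Other members are named to account for all 72. Exon overlap came from GENCODE vM21. Tables and plots used Python 3.11.15, pandas 2.3.3 and matplotlib 3.10.9.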

Additional observations from a re-analysis of the deposited data

Results flagged for a closer look

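In 8 of 144 groups of 4 libraries (5.56%), 1 library stood far from the other 3 (Dixon's 95% critical value), and chance flags about 1 in 20 such groups. In DKO water these were Nrp1 at 9.17 FPKM in replicate 3 (group median 7.58), Plxnb3 at 5.78 FPKM in replicate 2 (median 4.76), Efnb2 at 6.06 FPKM in replicate 1 (median 5.53) and Ntng1 at 1.91 FPKM in replicate 2 (median 2.24). In WT nicotine it was Plxnc1 at 7.71 FPKM in replicate 2 (median 8.54). In WT water these were Ephb3 at 8.55 FPKM in replicate 1 (median 7.88), Sema3b at 0.509 FPKM in replicate 4 (median 0.759) and Unc5a at 29.4 FPKM in replicate 3 (median 27.9). The calls of Nrp1, Plxnb3 and Ephb3 were kept without the library concerned.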

How the results depend on the processing

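Leaving out each library gave 25 to 32 called members for DKO against WT on water and 21 to 30 on nicotine, 0 in WT nicotine against WT water and in the interaction, and 0 to 2 in DKO nicotine against DKO water, the 2 being Unc5d and Robo3 without DKO nicotine replicate 3. Voom on recovered reads called 1 member (Unc5d) in DKO nicotine against DKO water. The same call made the substrate list 1 there with voom and 0 to 1 over the left-out libraries, and in DKO nicotine against WT nicotine that list gave 1 to 3. The vascular list gave 1 with a filter at 5 FPKM and 2 to 3 over left-out libraries on water, and on nicotine 2 with rescaling, 0 with the 5 FPKM filter, which fewer members passed, and 1 to 3 over left-out libraries. The partner list gave 26 to 34 on water and 19 to 29 on nicotine. With the replicate block, 30 members were called on water, 27 on nicotine and 0 in the other comparisons. Deviations of same-numbered libraries correlated at -0.214 to 0.165 over 21 pairs (median -0.009). Those of different number correlated at -0.188 to 0.229 over 63 pairs (median 0.009). With groups of 3 or 4 libraries, this cannot exclude that the numbers pair the libraries. With Y-linked expression as a term, chosen after seeing the data, the counts in DKO nicotine against WT nicotine were 10 members, 11 partners and 0 substrates, and no member was called in the nicotine comparisons or the interaction. With only the groups compared, 35 and 26 members were called. Of 5445 refitted values, 5345 kept their direction and side of the threshold, 59 no longer passed and 41 newly passed, and none changed sign while called. These covered only the members named by rule, so not Nrp2, Sema5b and Sema6c, and left out the Y-linked term. They also held the nicotine comparisons and the interaction, where no member was called to begin with. The total is therefore no measure of how many genotype calls ended, which are given gene by gene above. Low members rest on few reads: 1 FPKM of the shortest member stood on 26.2 reads.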
